A study of Homo sapiens with 2 samples.

Results

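Integrins are paired alpha and beta subunits through which a cell holds its surrounding matrix. Inside the cell their short tails recruit talin and kindlin, which switch the receptor on, and a layer of adaptors and kinases that ties it to actin filaments and passes signals on, a structure called the focal adhesion. In invasive breast cancer cells this machinery sets how the cell grips, spreads and crawls. The expression of 36 genes of this machinery was compared between a line that overexpressed the microRNA miR-203 and its control. The genes were 15 integrin subunits and 21 kinases, adaptors, actin linkers and caveolins, taken from a list of names.

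The cells were MDA-MB-231, a triple-negative human breast cancer line, infected with a virus and kept as stable lines. One line carried an empty vector and the other the miR-203 construct. Each was measured once, on 1 Affymetrix array, and nothing in the labels says how many clones each line came from or how high miR-203 was in it. No probe set was named for miR-203 (0 of 54675), so its overexpression was not measured. Of the 36 genes, 35 had a probe set annotated to that gene alone, and 31 were measured, that is, their highest-mean probe set reached 5.37, the median of all probe sets on the log2 scale, on at least 1 array. These 31, of 13311 measured genes in all, were 12 integrin subunits and 19 others, and each of the 31 lay above 5.37 on both arrays, so no gene entered through 1 array alone.

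All differences below are log2 values of the miR-203 line minus the empty-vector line. With 1 array per line there was no replicate error and no test, so no difference could be compared with replicate spread. In its place each difference was set beside the middle 95% of the differences found for the 500 genes closest to it in mean level, called here the range of similar genes. Over all measured genes the median difference was 0.013 and the SD 0.22. The markers of the line were as its name implies for vimentin (VIM), at 13.90 and 13.89, and for E-cadherin (CDH1) and the progesterone receptor (PGR), which lay under 5.37 on both arrays. The oestrogen receptor gene ESR1, at 6.27 and 6.30, the receptor kinase gene ERBB2, at 8.58 and 8.48, and the epithelial marker EPCAM, at 8.35 and 8.25, passed the level on both arrays. Only 3 of 9 ESR1 probe sets reached the level, and 1 of those under it was at 3.14 and 3.27. Of the blood cell markers 3 of 6 were measured, with differences from -0.09 to -0.04, and the pan-leukocyte gene PTPRC lay under the level. Of the endothelial markers 2 of 5 were measured. PECAM1 was at -0.11, from 7.06 to 6.95, with probe sets at the level from -0.33 to -0.10. KDR was at -0.75, from 5.51 to 4.76, the latter under the level. With that value raised to the level KDR was at -0.14, and CDH5, VWF and CLDN5, under the level on both arrays, were at 0.28, 0.25 and 0.24. Of the fibroblast markers 3 of 5 were measured, with THY1 at -0.84, DCN at -0.12 and PDGFRB at 0.35. The level of 5.37 is not a detection limit, and whether these marker differences bear on the adhesion genes was not tested. As RNA came from whole cultures, fewer cells with a transcript and less of it per cell cannot be told apart.

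MicroRNAs find their targets mainly by pairing bases 2 to 8, the seed, with messenger RNA. The labels name miR-203 without its arm. The 3p strand, from MIR203A at chr14:104117469-104117490 on the plus strand of GRCh38.p14 (RefSeq), is shown with the seed in capitals because it is the one usually meant by miR-203.
hsa-miR-203a-3p: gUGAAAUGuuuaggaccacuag
Sites for this seed in the adhesion genes were not analysed here.

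The integrin and focal adhesion genes differed little between the lines. None of the 31 reached 2-fold by its highest-mean probe set (0 higher, 0 lower), though another probe set of NEDD9 was 2.09-fold lower. Of all measured genes, 0.105% reached 2-fold on the higher side and 0.27% on the lower. None of the 31 reached 1.5-fold by its highest-mean probe set (0 higher, 0 lower), against 0.721% and 1.08% of all genes. These shares are so low that a count of 0 in 31 is nothing particular to this list. At a difference of 0.32 or more on the log2 scale, 4 were higher (ITGB4, CAV2, ITGB3 and FERMT2) and 1 was lower (NEDD9), where 6.82% and 4.55% of all genes passed. Of the 31, 25 differed by less than 0.3. The median was 0.025, 16 lay above 0 and 15 below, and 52.1% of all genes lay above 0. The 3 genes ITGB3, ITGB4 and CAV2, lay above the range of similar genes and none lay below it (0 of 31), beside 2.7% and 2.66% of all genes.

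**Figure D1:**
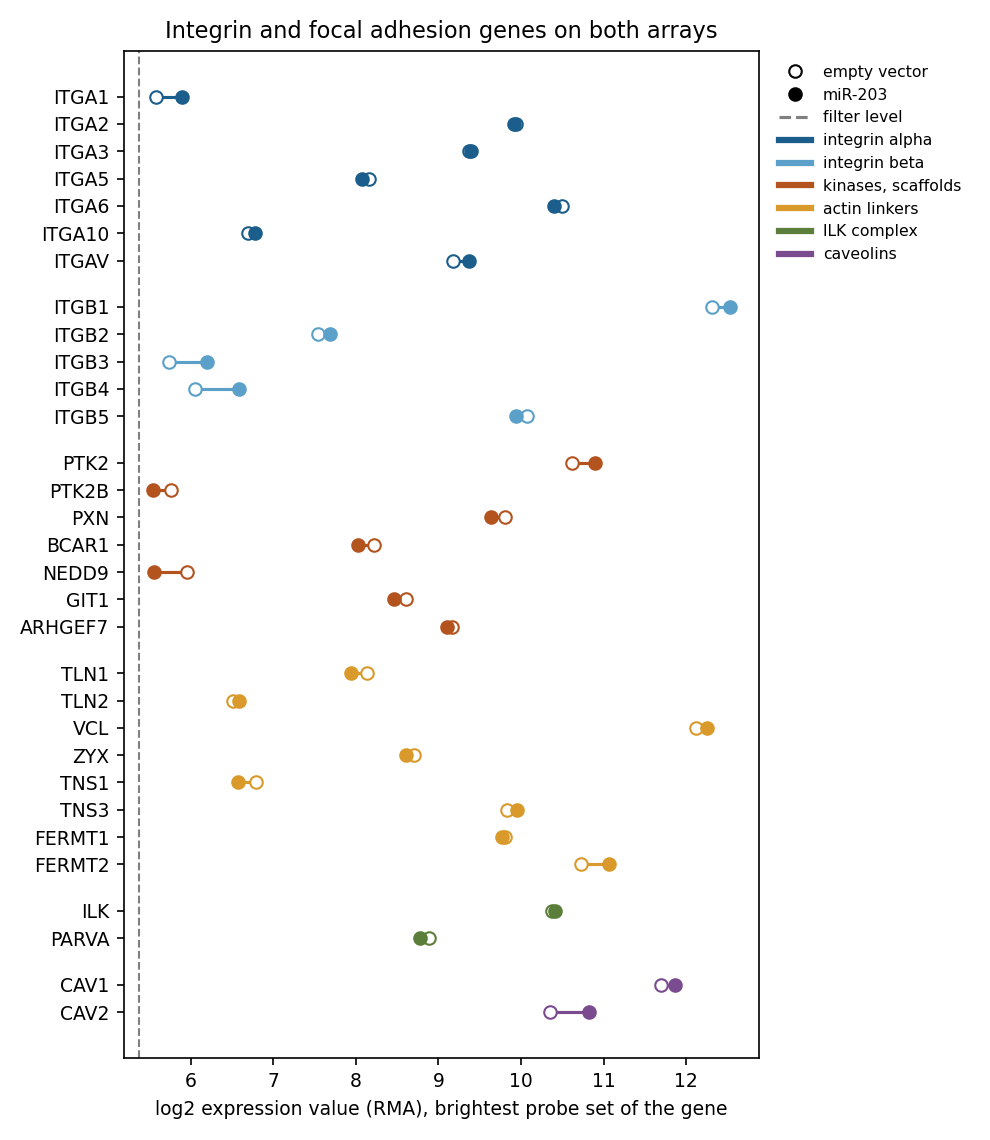
Log2 expression values (x axis) of the 31 measured genes, grouped by role, on the empty-vector array (open points) and the miR-203 array (filled points), with the level of 5.37 dashed. The longest lines join the values of ITGB4, CAV2, ITGB3 and NEDD9; for most other genes the points nearly touch.

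Integrin subunits and the other genes were also taken apart. The 12 subunits had a median difference of 0.12, with 8 above 0 and 4 below, and 10 of the 12 lay inside the range of similar genes. The 19 kinases, adaptors, linkers and caveolins had a median of -0.058, with 8 above 0 and 11 below, and 18 of the 19 lay inside it. Over all measured genes the median was 0.013, with 52.1% above 0 and 45.8% below. The integrin median was 0.0038 when the level was raised to the 75th percentile of probe sets, which left 8 subunits. It was 0.022 when the median over each gene's probe sets was taken. That choice also left 8 subunits, without ITGA1, ITGB1, ITGB3 and ITGB4, so the genes changed along with the values. The median of all members lay between -0.017 and 0.027 under the alternatives run, so it has no settled sign.

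The beta subunits had a median of 0.21 over 5 genes, 4 of them above 0. ITGB1, which pairs with most of the alpha subunits here to bind fibronectin, collagen and laminin, was at 12.32 with the empty vector and at 12.53 with miR-203. Its difference of 0.21 lay inside the range of similar genes, -0.24 to 0.27. Its other probe sets at the level gave 0.25 and 0.32, so 3 of 3 were higher in the miR-203 line.

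ITGB4, the partner of ITGA6 in the laminin receptor of hemidesmosomes, went from 6.05 to 6.58. The difference of 0.53 (1.44-fold) lay above the -0.66 to 0.48 of similar genes. Its other probe set at the level gave 0.042, so the higher value rested on 1 probe set. ITGB3, the beta subunit of the vitronectin receptor with ITGAV, went from 5.73 to 6.19. Its 0.46 (1.38-fold) lay just above the upper bound of 0.44, and its other probe set at the level gave 0.080. Neither gene passed when the level was the 75th percentile, so both values lie in the dimmer part of the array.

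ITGB5, which also pairs with ITGAV, went from 10.07 to 9.94. Its 4 probe sets ran from -0.13 to 0.086 and disagreed in sign. ITGB2, the beta subunit of leukocyte integrins, was at 7.54 and 7.69, and its 3 probe sets were higher by 0.14 to 0.20. ITGB8 was under the level at 4.64 on both arrays, with a difference of 0.00. ITGB6, which pairs with ITGAV in epithelia, had only probe sets annotated to more than 1 gene and was not analysed here.

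Alpha subunits stayed close to 0, with a median of 0.025 over 7 genes. Among the collagen receptors, ITGA2 was at 9.94 and 9.92, a difference of -0.02, with a second probe set at -0.25. ITGA1 was at 5.58 and 5.89, a difference of 0.31 inside the -0.47 to 0.41 of similar genes. ITGA10 was at 6.69 and 6.78. These values show no common shift of the collagen-binding alpha chains.

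Of the laminin receptors, ITGA3 was at 9.37 and 9.40. ITGA6 was at 10.49 and 10.40, and its other probe set gave the opposite sign, 0.078. ITGA6 was thus not higher alongside its partner ITGB4. The fibronectin receptor chain ITGA5 was at 8.15 and 8.08, a difference of -0.08. ITGAV, which serves several RGD-binding receptors, was at 9.18 and 9.37, a difference of 0.19. ITGA4, the partner of ITGB1 in binding VCAM1, was under the level at 3.28 and 3.17.

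**Figure D2:**
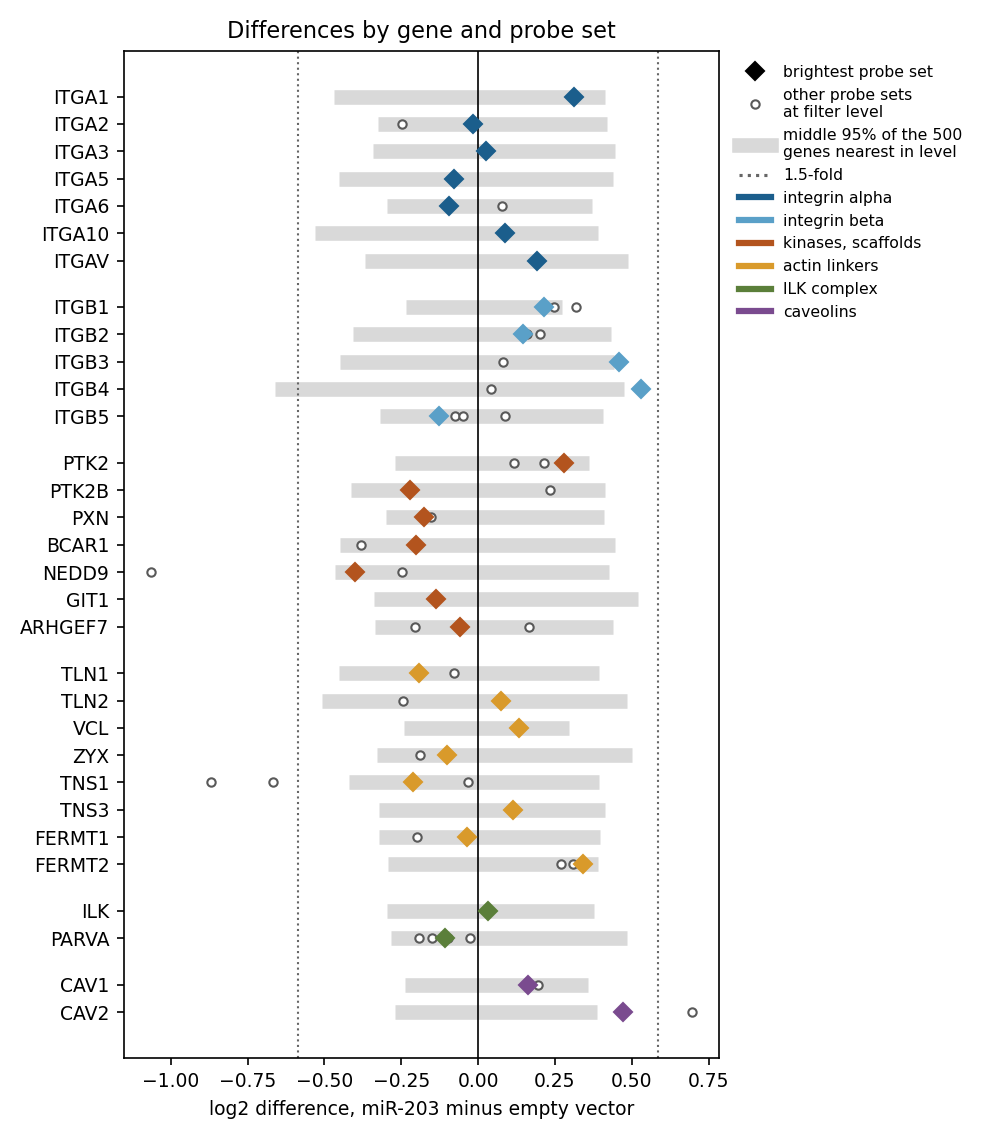
Log2 difference of the miR-203 line minus the empty-vector line (x axis) for the 31 measured genes. Diamonds are the highest-mean probe set, open circles the gene's other probe sets at the level, grey bars the middle 95% of the 500 genes nearest in level, and dotted lines mark 1.5-fold. No diamond crosses a dotted line, while open circles of NEDD9, TNS1 and CAV2 do.

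The kinases and docking scaffolds had a median of -0.18, with 6 of 7 below 0, where 45.8% of all genes were. All 7 lay inside the range of similar genes, and for PTK2B and ARHGEF7, among the 6, the probe sets disagreed in sign. The 1 above 0 was the focal adhesion kinase gene PTK2, the tyrosine kinase that integrins activate first. It went from 10.62 to 10.90, a difference of 0.28 inside the -0.27 to 0.36 of similar genes. Its 3 probe sets at the level were all higher, from 0.12 to 0.28. Its relative PTK2B, also called PYK2, was at 5.76 and 5.54, but its second probe set gave 0.23 against -0.22, so no direction held. That second probe set was at 5.16 with the empty vector, under the level, and gave 0.018 with this value raised to it.

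Paxillin (PXN), the scaffold that docks this kinase, was at 9.81 and 9.64. Its probe sets gave -0.18 and -0.15. BCAR1, a substrate of the kinase that recruits CRK, was at 8.22 and 8.02, and its probe sets gave -0.20 and -0.38. GIT1 was at 8.61 and 8.47. ARHGEF7 (beta-PIX), its partner that activates RAC1 and CDC42, was at 9.16 and 9.10, with probe sets from -0.20 to 0.17. Each of these differences lay inside the range of similar genes.

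NEDD9, a Cas-family scaffold like BCAR1 that promotes cell migration, was the lowest of the 31 genes. By its highest-mean probe set it went from 5.95 to 5.55, a difference of -0.40 inside the -0.47 to 0.43 of similar genes. A second probe set of nearly the same mean went from 6.27 to 5.21, a difference of -1.06 (2.09-fold), and the remaining one gave -0.25. With the 5.21, which lay under the level, raised to it, the second probe set was at -0.90. All 3 probe sets at the level were thus lower in the miR-203 line, by sizes from 0.25 to 1.06.

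The genes that link integrins to actin went both ways, 4 of 8 above 0, with a median of 0.020. Talin-1 (TLN1), which binds the beta tail and activates the receptor, was at 8.13 and 7.94. Talin-2 (TLN2) was at 6.52 and 6.59, with its second probe set at -0.24. Kindlin-2 (FERMT2), the co-activator that binds the beta tail beside talin, went from 10.72 to 11.06. Its difference of 0.34 (1.27-fold) lay inside the -0.29 to 0.39 of similar genes, and its 3 probe sets gave 0.27, 0.31 and 0.34. Kindlin-1 (FERMT1) was at 9.80 and 9.77, with probe sets from -0.20 to -0.035.

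Vinculin (VCL), which reinforces talin's hold on actin, was at 12.12 and 12.26. Zyxin (ZYX), a LIM protein of mature adhesions, was at 8.71 and 8.61. TNS3, a tensin that binds the beta tail of older adhesions, was at 9.83 and 9.95. Tensin-1 (TNS1) went from 6.79 to 6.58 by its highest-mean probe set, a difference of -0.21. Other probe sets of TNS1 went from 6.76 to 5.89 and from 6.39 to 5.73, differences of -0.87 and -0.67, and a further one gave -0.033. The 4 probe sets at the level shared their sign but, like those of NEDD9, not their size.

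The integrin-linked kinase ILK, a scaffold that joins integrins to the parvins and PINCH, was at 10.38 and 10.41. PARVA, the only parvin measured among the members, was at 8.89 and 8.78, with 5 of 5 probe sets lower by 0.025 to 0.19. PARVB, at 4.98 and 4.86, and LIMS1 (PINCH-1), at 4.04 and 4.15, were under the level. LIMS1 has near-identical copies, and 2 further probe sets that it shares with them were not used. PARVB was the gene nearest below the level, and PTK2B, NEDD9 and ITGA1 were the nearest above it.

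**Figure D3:**
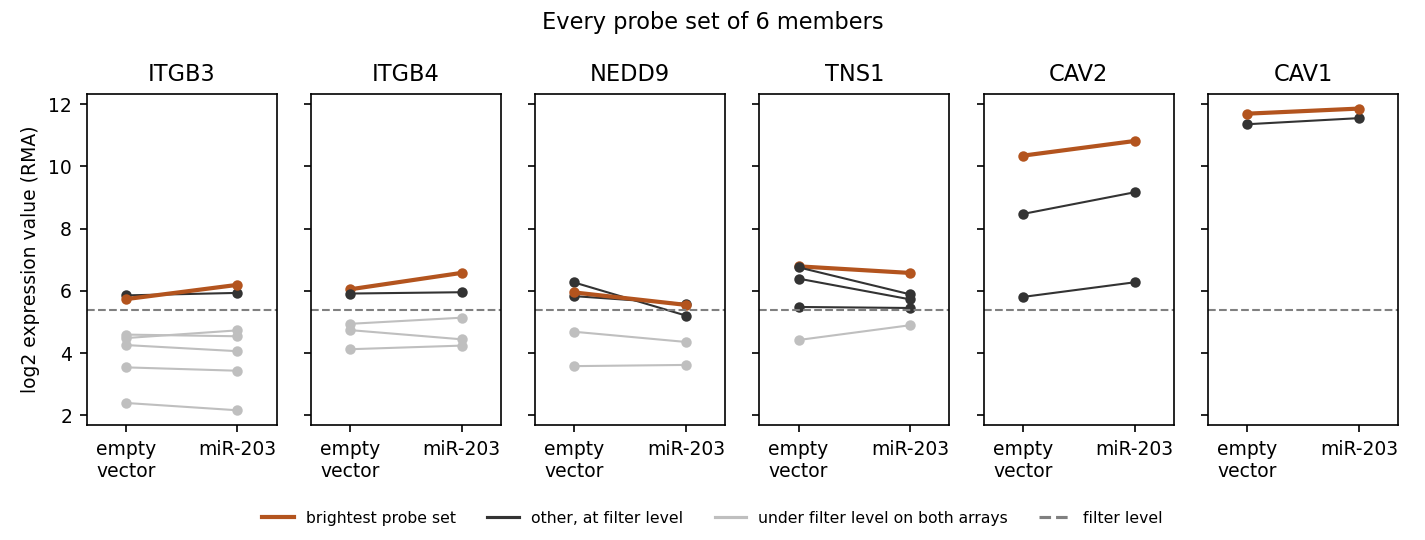
Log2 expression values (y axis) of every probe set of ITGB3, ITGB4, NEDD9, TNS1, CAV2 and CAV1 on the empty-vector and miR-203 arrays. Orange lines are the highest-mean probe set, black lines other probe sets at the level of 5.37 (dashed), grey lines probe sets under it on both arrays. All lines of CAV2 and CAV1 slope upward and all black and orange lines of NEDD9 and TNS1 slope downward, whereas for ITGB3 and ITGB4 the orange line slopes upward, the black line is nearly flat and the grey lines go both ways.

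Caveolins coat the membrane pits called caveolae and meet integrin signalling through SRC-family kinases. CAV2 was higher by every one of its 3 probe sets. The brightest went from 10.35 to 10.82, a difference of 0.47 (1.39-fold) above the -0.27 to 0.39 of similar genes. Its other probe sets went from 8.47 to 9.17 (0.70, or 1.62-fold) and from 5.81 to 6.28 (0.47). CAV1, reported elsewhere as a target of miR-203, was at 11.70 and 11.86, which is 0.16 higher and inside the -0.24 to 0.36 of similar genes, and the other probe set gave 0.20. All 5 probe sets of the 2 caveolins were higher in the miR-203 line. Whether miR-203 acts on CAV1 in these cells was not tested.

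CAV2 and CAV1 are neighbours on chromosome 7, with TES before them and MET and CAPZA2 after. TES, a LIM protein of focal adhesions, was at -0.050, MET, the hepatocyte growth factor receptor, at 0.15, and CAPZA2, an actin-capping subunit, at 0.080. The 250 bases before the first listed start of each caveolin are shown because both of these neighbours were higher. They are RefSeq sequences on the plus strand of GRCh38.p14, chr7:116499488-116499737 for CAV2 and chr7:116524759-116525008 for CAV1, upstream of the annotated genes. Capitals mark the GC box GGGCGG or its reverse complement CCGCCC.
CAV2: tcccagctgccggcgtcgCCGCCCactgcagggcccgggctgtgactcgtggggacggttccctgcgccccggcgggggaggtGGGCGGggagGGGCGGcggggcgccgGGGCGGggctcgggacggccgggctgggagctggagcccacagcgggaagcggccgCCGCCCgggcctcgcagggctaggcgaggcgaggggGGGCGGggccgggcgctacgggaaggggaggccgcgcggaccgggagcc
CAV1: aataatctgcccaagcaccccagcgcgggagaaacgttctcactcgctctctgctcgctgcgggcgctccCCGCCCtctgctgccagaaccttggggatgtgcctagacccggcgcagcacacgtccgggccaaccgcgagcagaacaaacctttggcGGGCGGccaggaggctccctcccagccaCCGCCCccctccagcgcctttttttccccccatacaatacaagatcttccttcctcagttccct
The CAV2 window held 6 GC boxes and 83.2% G or C, the CAV1 window 3 and 63.6%. These values depend on the start. The second CAV2 start had 3 and 70%, the second CAV1 start 3 and 63.2%, and the third CAV1 start 2 and 73.2%. At least 1 GC box was held by 42.6% of 35116 promoter windows of this length, by a window of 46.2% of all genes, and by one of 22 of the 28 member genes with an entry (78.6%), so it does not mark the caveolins out. Neither window shown held TGANTCA, the AP-1 motif (in 6.57% of windows), or CATTCC, a TEAD motif (in 11.9%), on either strand. These are descriptions of letters and say nothing of which factor acts there.

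Counted over probe sets and not genes, 68 of the adhesion genes' probe sets reached the level. At 1.5-fold, 1 was higher (CAV2) and 3 were lower (NEDD9 and, with 2, TNS1), beside 0.658% and 1.04% of 24003 probe sets. Of the 22 members with several probe sets at the level, 17 had the same sign in all, or 77.3%, against 52.7% of 6285 such genes over the array. This share is a description only, as probe sets of a gene share the same RNA and the same hybridisation.

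Genes around this machinery, from lists of the pathway, were counted in the same way. Of 43 other adhesion adaptors measured, 2 lay above the range of similar genes and 4 below it, beside 2.7% and 2.66% of all genes. The median of these adaptors was 0.005. At 1.5-fold 1 was higher and 1 lower, beside 0.721% and 1.08% of all genes. The lower one, RAPGEF1, which binds CRK and activates the small GTPase RAP1, went from 8.51 to 7.34, a difference of -1.17 (2.26-fold) below the -0.46 to 0.41 of similar genes. Its other probe sets gave -0.81 and -0.25, so 3 of 3 were lower. The higher one was FERMT3 (kindlin-3), the kindlin of blood cells, which went from 7.91 to 8.53, 1.54-fold, by its single probe set. None of the 8 other integrin subunits measured reached 1.5-fold (0 higher, 0 lower). The largest among them were ITGAL at -0.38, with its miR-203 value under the level, and ITGA8 at 0.38, with its empty-vector value under it.

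Among 7 caveolae partners, 1 passed 1.5-fold higher and 0 lower, beside 0.721% and 1.08% of all genes. Those shares apply to each list below. The higher one was CAVIN2, a coat protein of caveolae, which went from 7.46 to 8.09, 1.54-fold. Its second probe set gave 0.78. CAVIN1, the coat protein most needed for caveolae, was at 11.67 and 11.62, a difference of -0.048 inside the -0.26 to 0.35 of similar genes. The 22 measured integrin ligands, of the matrix or the cell surface, had a median of 0.13, with 12 above 0 and 9 below. None of them passed 1.5-fold by the highest-mean probe set (0 higher, 0 lower). At a difference of 0.32 or more, 6 were higher and 0 lower, beside 6.82% and 4.55% of all genes. Of the ligands 5 lay above the range of similar genes and 0 below, beside 2.7% and 2.66% of all genes. Those 5 were FN1, LAMA5, THBS1, ADAM9 and EDIL3, all picked by their values, the last 3 beyond the 2 largest differences named by rule. Fibronectin (FN1), the ligand of ITGA5 with ITGB1, went from 10.95 to 11.52, a difference of 0.58, with probe sets at the level from 0.47 to 0.62. The laminin chain LAMA5 was at 0.53 by 1 probe set. Thrombospondin-1 (THBS1) was at 0.49, with probe sets at the level down to 0.14. ADAM9 was at 0.45, with others down to 0.046. EDIL3 was at 0.42, but its other probe sets at the level gave 0.12 and -0.021 and so disagreed in sign. The 11 membrane partners of integrins had a median of -0.059, and none passed 1.5-fold (0 higher, 0 lower). Their largest differences were -0.23 for CD81 and 0.20 for CD9, both tetraspanins. Of 10 measured genes downstream of adhesion, MYL9, the myosin light chain through which adhesions are put under tension, was 1.57-fold higher, from 8.13 to 8.78, and its second probe set gave 0.28. It was not past 1.5-fold with the median over its probe sets, at 0.47, or without the _s_at probe set, at 0.28.

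**Figure D4:**
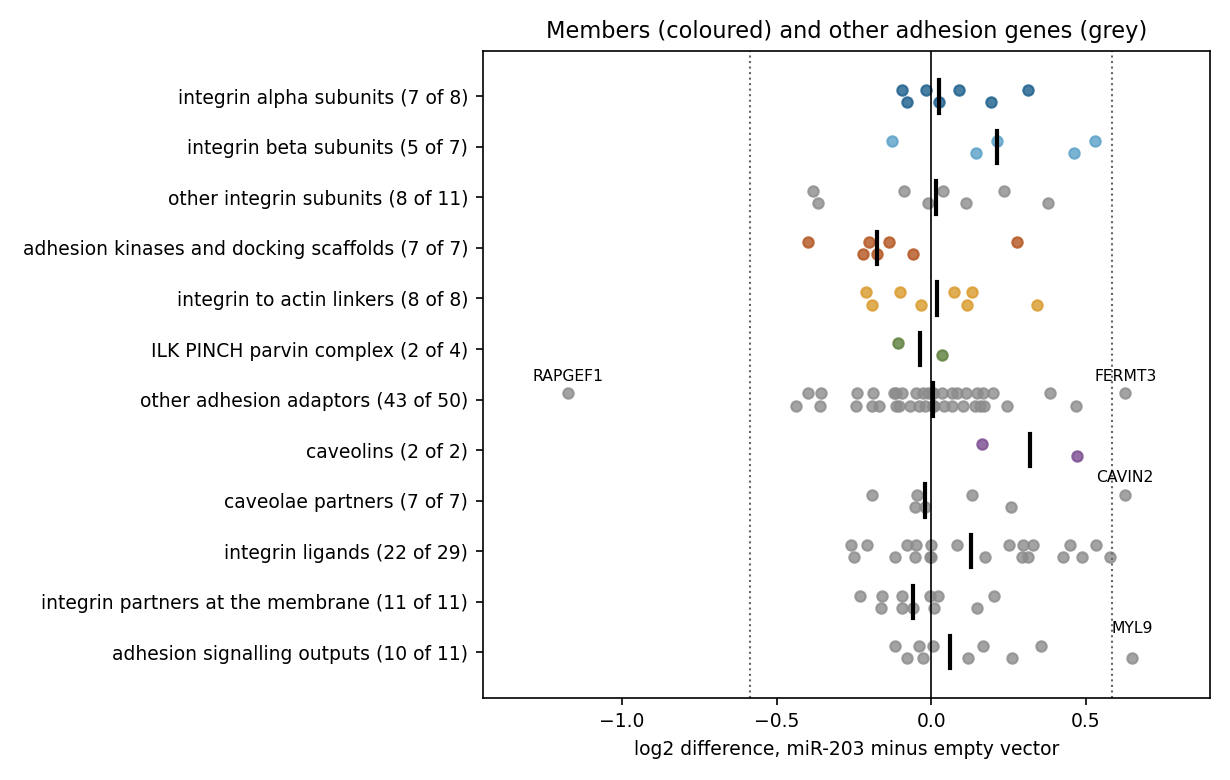
Log2 difference of the miR-203 line minus the empty-vector line (x axis) for each measured gene of 12 lists, the 6 groups of members in colour and 6 further adhesion lists in grey, with the number measured of those listed. Black bars are list medians and dotted lines 1.5-fold; RAPGEF1, FERMT3, CAVIN2 and MYL9, none of them a member, lie beyond it.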

How the data were processed

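The authors deposited log2 values for each probe set, made with RMA per the submitters' processing notes (background correction, forcing the arrays to 1 distribution, median polish), with its version not given in the sources used here. Per the labels' protocols, cRNA was made from 6 µg of total RNA. The log2 scale was inferred from the values. Sorted, the columns lay within 0.095 of each other, so a change common to all mRNAs would not be seen. Probe sets were named from the platform annotation (1801 with several symbols unused) and RefSeq symbols. Each gene took its probe set of highest mean, and was kept if either value reached 5.37. Differences were computed with Python 3.11.15, numpy 2.4.6 and pandas 2.3.3, and the counting was tested on simulated data. No test was possible with 1 array per group, and the number of arrays limits the precision. All 36 members are accounted for, as are genes of the other pathway lists past 1.5-fold or, without one, the 2 largest. Members and lists were chosen with earlier results of these data known. Alternatives were other filters (none, 75th percentile), the median over probe sets, no _x_at or _s_at probe sets (which can match several transcripts), a loess trend (span 0.3) removed, centring, values raised to the level, and other fold thresholds.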

Additional observations from a re-analysis of the deposited data

How the results depend on the processing

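No paired analysis was possible because there was 1 array per line, and for the same reason no replicate could be left out. The median of the integrin subunits moved from 0.12 to 0.0038 with the level at the 75th percentile, as fewer genes could pass; the other medians moved by less than 0.10, the median within-gene SD over probe sets, under the alternatives run. The counts past 1.5-fold, 0 higher and 0 lower, became 1 higher (CAV2) and 2 lower (NEDD9 and TNS1) with the median over probe sets, which left 26 members. They were the same without _x_at and _s_at probe sets, which left 24, and there 1 (NEDD9) was past 2-fold. The share of all genes past these folds was not computed under either alternative. CAV2, NEDD9 and TNS1 all lay among the kinases, adaptors and caveolins. At a difference of 0.32, 4 were higher, 2 of them integrin subunits and 2 others, and 1 was lower, a scaffold. Taking the median over probe sets moved 10 of 26 members by more than 0.10, with 3 changes of sign (ITGB5, PTK2B and TLN2), and leaving out _x_at and _s_at probe sets moved 6 of 24, with 1 change of sign (ITGB5). No filter, the 75th percentile, centring, values raised to the level and the loess removal moved 0 members by that much, with 1 change of sign (ITGA3, after the loess removal).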
